A study of Mus musculus with 5 samples.

Results

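Levels of the integrin, laminin and basement membrane genes were compared between the tissues of the early mouse eye region, to show which cells hold transcripts of the matrix and which hold those of its receptors. The set was chosen by gene symbol: every integrin alpha or beta subunit, every laminin chain, the linker genes Nid1, Nid2, Hspg2 and Agrn, the dystroglycan gene Dag1, and the matrix genes Fn1, Vcan and Sparc. It holds 48 genes of the 27998 in the deposited table, of which 18 encode matrix proteins, 29 encode receptors and 1, Itgbl1, is related to integrin beta subunits without being one. The 48 entries carry 47 symbols, because Itgam stands for 2 gene IDs (ENSMUSG00000030786 and ENSMUSG00000108596) that overlap on chromosome 7 and are counted apart, with 29 and 18 UMIs in the cells kept. In the cells kept, 46 members had at least 1 UMI (a UMI is 1 counted RNA molecule), and Itgax and Itgb2l had 0.

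The tissue was the ocular area, cut by needle from wild-type C57BL/6J mouse embryos and dissociated with trypsin. The labels give 1 embryo at each of 12, 16, 20, 24 and 26 somites, both eye regions being taken, with 3′ droplet single-cell sequencing as the readout. All groups therefore share strain and genotype, and no treatment is given. The single deposited table marks 5 libraries by a suffix on the cell barcode, but nothing in the labels ties a suffix to a stage, so they are called libraries 1 to 5, they are not replicates of a condition, and no order in time is read from them.

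A basement membrane is a thin sheet of extracellular matrix under epithelia and around vessels. Its laminins are trimers of 1 alpha, 1 beta and 1 gamma chain that assemble into a network at the cell surface, which nidogens and the heparan sulphate proteoglycans perlecan (Hspg2) and agrin (Agrn) join to the collagen IV network. Cells bind it through integrins, each a pair of an alpha and a beta subunit, and through dystroglycan (Dag1). Alpha-3 and alpha-6 subunits pair with beta-1 as laminin receptors, alpha-5 with beta-1 as the classical fibronectin receptor, and alpha-4 and alpha-9 bind fibronectin or other matrix ligands. In the eye region such a sheet lies between the optic vesicle and the surface ectoderm that forms the lens, and the vesicle is otherwise surrounded by mesenchyme and vessels.

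Short promoters of 5 members are shown because these genes mark the contrasts described here: Lama5 and Hspg2 were higher in surface ectoderm than in optic vesicle, Nid1 and Itgb5 were higher in mesenchyme, and Sparc was higher in optic vesicle than in mesenchyme. The 300 bases around the start of each gene are those of RefSeq on GRCm38.p6, printed in the direction of transcription.
Lama5, chr2:180225810-180226109, minus strand: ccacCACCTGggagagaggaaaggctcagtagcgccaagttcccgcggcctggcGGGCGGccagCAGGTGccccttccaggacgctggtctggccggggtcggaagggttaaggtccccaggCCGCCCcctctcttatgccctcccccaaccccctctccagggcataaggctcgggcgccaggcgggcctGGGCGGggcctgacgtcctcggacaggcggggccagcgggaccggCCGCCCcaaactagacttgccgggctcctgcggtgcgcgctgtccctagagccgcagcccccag
Hspg2, chr4:137468553-137468852, plus strand: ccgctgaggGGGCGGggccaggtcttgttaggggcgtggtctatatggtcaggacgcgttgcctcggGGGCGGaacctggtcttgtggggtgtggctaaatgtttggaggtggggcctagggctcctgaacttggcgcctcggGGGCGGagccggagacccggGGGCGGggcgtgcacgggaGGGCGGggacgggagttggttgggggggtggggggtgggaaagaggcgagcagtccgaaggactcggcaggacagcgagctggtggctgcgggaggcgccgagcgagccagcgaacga
Nid1, chr13:13437352-13437651, plus strand: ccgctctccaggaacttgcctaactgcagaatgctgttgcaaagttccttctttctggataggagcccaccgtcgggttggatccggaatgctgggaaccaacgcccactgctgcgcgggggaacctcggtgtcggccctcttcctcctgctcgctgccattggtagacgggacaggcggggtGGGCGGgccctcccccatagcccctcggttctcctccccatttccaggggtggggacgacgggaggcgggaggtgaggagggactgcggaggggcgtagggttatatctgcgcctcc
Itgb5, chr16:33829415-33829714, plus strand: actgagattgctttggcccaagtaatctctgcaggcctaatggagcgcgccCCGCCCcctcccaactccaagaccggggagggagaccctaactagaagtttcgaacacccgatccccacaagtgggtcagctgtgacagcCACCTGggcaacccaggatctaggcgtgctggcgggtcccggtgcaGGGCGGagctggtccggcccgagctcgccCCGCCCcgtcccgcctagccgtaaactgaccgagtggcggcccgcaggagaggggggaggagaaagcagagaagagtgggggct
Sparc, chr11:55420031-55420330, minus strand: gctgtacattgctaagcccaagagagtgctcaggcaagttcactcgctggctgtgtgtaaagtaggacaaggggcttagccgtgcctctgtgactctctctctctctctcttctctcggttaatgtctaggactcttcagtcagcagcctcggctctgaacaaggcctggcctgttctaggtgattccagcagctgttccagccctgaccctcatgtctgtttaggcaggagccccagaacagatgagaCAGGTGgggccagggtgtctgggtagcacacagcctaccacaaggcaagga
Capitals mark matches, on either strand, to GGGCGG (the GC box), CACCTG (an E-box) or TATAAA (the TATA box), and no matches overlapped. GGGCGG was found 4 times in Lama5, 5 times in Hspg2, once in Nid1 and 3 times in Itgb5, and not in the Sparc window. CACCTG was found 2 times in Lama5, once in Itgb5 and once in Sparc, thus in genes with different tissue patterns. Of all 32851 promoters of the table, 35.7% held GGGCGG, 20.2% CACCTG and 13.6% TATAAA. Of the 31 member genes matched to that table, 17 held GGGCGG, 9 held CACCTG and 0 held TATAAA. A gene was counted once if any of its promoters matched, whereas the percentages count single promoters, so the units differ. These are letter matches, not measured binding sites.

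The table held 8194 barcodes, with library medians from 20713 to 30922 UMIs per barcode. Of the 8106 cells kept, the 6 classes described here were the optic vesicle-like cells (1892), other forebrain-like cells (1322), surface ectoderm-like cells (373), cranial crest mesenchyme-like cells (1683), head mesoderm-like cells (433) and endothelium-like cells (388). They were named from marker genes after clustering without the member genes. The optic vesicle, ectoderm, crest, head mesoderm and endothelium classes each held UMIs of all markers of their own list. Other classes often did too, so such presence does not set a class apart. The optic vesicle class carried 1274 CPM (counts per 1000000 UMIs of the class) of its own 10 markers, and 46.2, 41.0 and 30.4 CPM of the endothelial, crest and ectodermal lists. Of the optic vesicle list, surface ectoderm carried 499.9 CPM and other forebrain 442 CPM. Other forebrain and crest mesenchyme (22.1 CPM) both held UMIs of all 10 of those markers. Library 5 held 804 of the optic vesicle-like cells but 7 of the other forebrain-like and 4 of the head mesoderm-like cells, so values of those classes rest on libraries 1 to 4. Cells of 456 barcodes with markers of several tissues (291 of them in library 3) and of 773 barcodes low in the nuclear RNA Malat1 were left out. Also in none of the 6 classes were 306 ventral neural cells with Nkx2-1 and Shh among their leading genes (118 of them in library 2). Of the barcode sequences, 40 occurred in more than 1 library. Erythroid-like cells (253), which should lack these matrix genes, served as the reading of free RNA for them: their 18 matrix genes summed to 17.8 CPM. Their receptor genes summed to 43.1 CPM, of which Itgb1 gave 16.0 CPM and Itga2b 11.8 CPM. Itga2b stood at 0.185 CPM in optic vesicle, so for receptors the reading can include transcripts of the erythroid-like cells themselves, not free RNA alone.

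Endothelium-like cells had by far the highest summed level of matrix transcripts, and it exceeded their receptor level 4.03-fold. The 18 matrix genes summed to 1593 CPM in endothelium, 506 CPM in head mesoderm, 449 CPM in surface ectoderm, 315 CPM in optic vesicle, 285 CPM in crest mesenchyme and 205 CPM in other forebrain. Receptor genes spanned a narrower range, from 396 CPM in endothelium and 321 CPM in surface ectoderm through 227 CPM in crest mesenchyme and 215 CPM in head mesoderm to 150 CPM in other forebrain and 146 CPM in optic vesicle. Below endothelium the pooled order was not the order within each library, since libraries contribute different shares of each class. For matrix genes, crest mesenchyme lay above optic vesicle in libraries 1, 2 and 5 (225 against 191, 268 against 247 and 421 against 391 CPM), and other forebrain lay above it in library 1 (211 CPM). Surface ectoderm lay above head mesoderm in library 4 (429 against 419 CPM). For receptor genes, head mesoderm lay above crest mesenchyme in each of libraries 1 to 4 (221 against 193, 238 against 233, 193 against 176 and 211 against 197 CPM), and the pooled crest value includes library 5, at 332 CPM. In every library endothelium led the matrix sum, between 1451 and 1660 CPM, and none of the other 5 classes passed 744 CPM in any library with at least 20 of its cells. Sparc, Fn1 and Vcan made up most of the optic vesicle sum: without them it stood at 66.6 CPM. Without these genes endothelium stood at 559 CPM, surface ectoderm at 199 CPM and crest mesenchyme at 140 CPM. Head mesoderm then stood at 139 CPM and other forebrain at 52.8 CPM. The pooled places of optic vesicle above crest mesenchyme and of head mesoderm above surface ectoderm thus rested on Sparc, Fn1 and Vcan. CPM compares a gene between classes and does not correct for transcript length, although a 3′ kit counts molecules by their end.

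**Figure D1:**
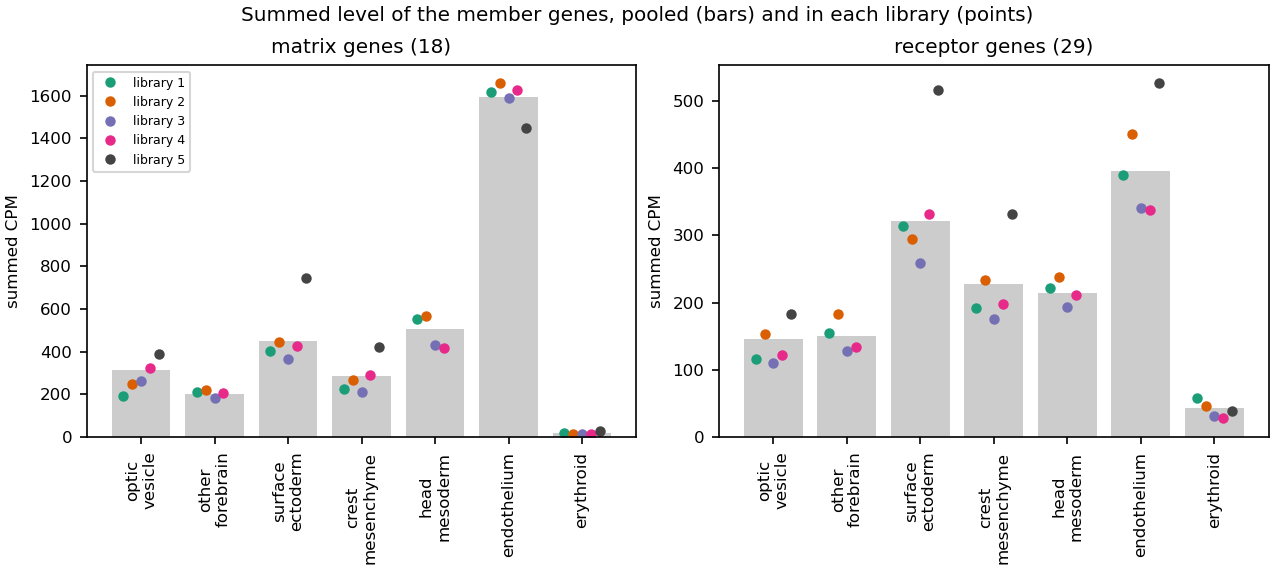
Summed CPM of the 18 matrix genes (left) and the 29 receptor genes (right) in 6 tissue classes and in erythroid-like cells; bars pool the libraries and points are single libraries with at least 20 cells of the class. Endothelium stands at 1593 CPM of matrix genes against 315 CPM in optic vesicle, while receptor sums run from 146 to 396 CPM outside the erythroid-like cells.

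Differences between classes were called by size: a CPM ratio of at least 2, a 95% interval for counting error that leaves out 1, at least 10 CPM in the higher class, and the same direction in each library with at least 20 cells of both classes. No test over libraries was made, since no label places a library in a group and they are not treated as replicates. A call therefore describes these libraries, with the classes set side by side within each. Of the 48 members, 21 reached 10 CPM in at least 1 of the 6 classes and 27 did not.

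**Figure D2:**
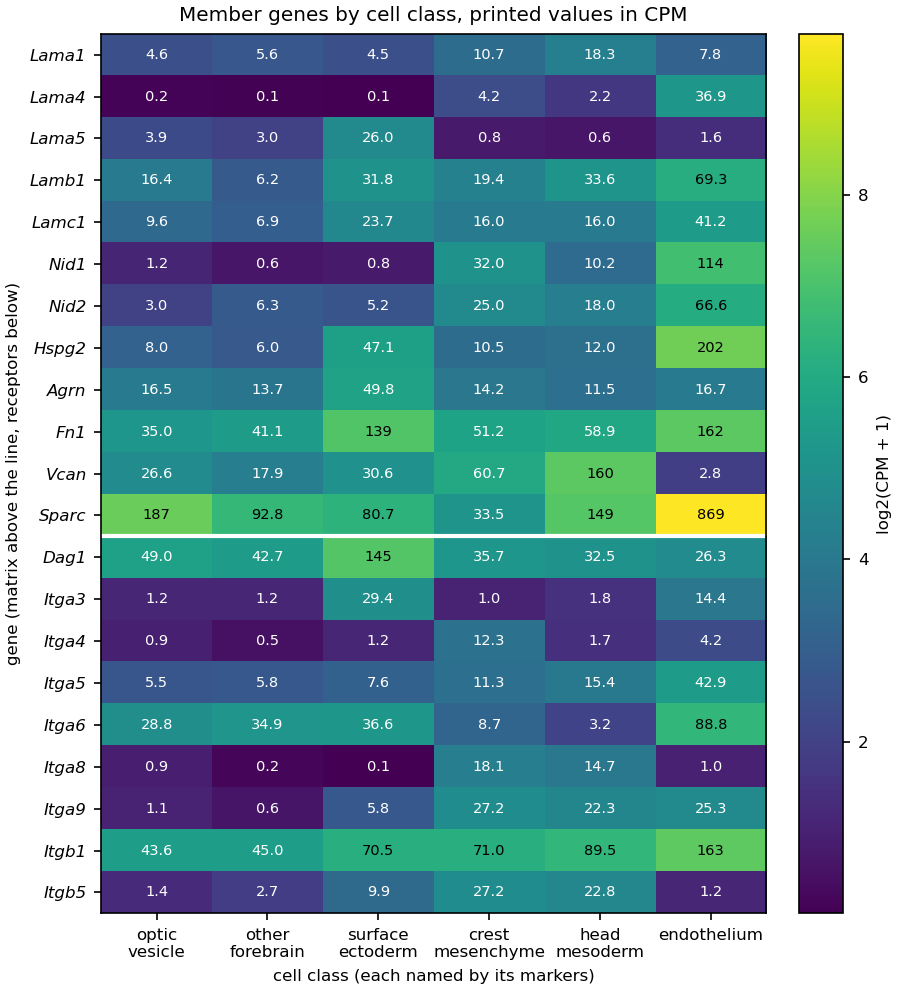
Level of the 21 members that reached 10 CPM, with classes in columns and genes in rows; colour is log2(CPM + 1) and the printed value is CPM. Lama4 is high in 1 column (endothelium), Lama5 in another (surface ectoderm), and Itga8 in the 2 mesenchymal columns.

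Against mesenchyme (crest and head mesoderm joined), the optic vesicle was lower in nidogens, versican, laminin alpha-1 and mesenchymal integrins, and higher in Itga6 and Sparc. Of 18 members tested, 9 were lower, where 5.02% of all 7531 genes tested were lower, and 2 were higher, where 5.01% were. The median log2 ratio of the tested members was -0.96, beside -0.05 for all genes. Among matrix members 4 of 10 were lower and 1 was higher, and among receptors 5 of 8 were lower and 1 was higher.

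Nid1, which encodes nidogen-1, was at 0, 0.736, 0.375, 1.33 and 1.90 CPM in the optic vesicle of libraries 1 to 5, and at 11.6, 27.0, 16.6, 34.6 and 57.9 CPM in mesenchyme. The 2 classes did not overlap, mesenchyme being 24.1-fold higher pooled (interval 19.1 to 30.8). The optic vesicle level of 1.16 CPM lay under the 2.76 CPM of erythroid-like cells, so it is not told apart from free RNA. Nid2, the second nidogen, was at 1.77 to 8.14 CPM in optic vesicle and 18.7 to 29.5 CPM in mesenchyme, a ratio of 0.126. Vcan, the large chondroitin sulphate proteoglycan versican, was 2.99-fold higher in mesenchyme (79.3 against 26.6 CPM), and Lama1 was 2.66-fold higher (12.1 against 4.55 CPM).

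The integrin genes that were lower in optic vesicle were those of alpha-9, alpha-8, alpha-4, alpha-5 and beta-5. Itga9 was at 0.750 to 1.46 CPM in optic vesicle and at 19.9, 23.7, 18.3, 26.5 and 48.5 CPM in mesenchyme, 24.0-fold higher pooled. Itgb5, a beta subunit that pairs with alpha-v, was at 1.20 to 2.09 CPM against 11.6, 22.2, 18.8, 34.2 and 52.4 CPM, 18.6-fold higher. Nid1 and Itgb5 were both lowest in the mesenchyme of library 1 and highest in that of library 5. The joined class differed in make-up: 153 head mesoderm-like and 204 crest mesenchyme-like cells in library 1, and 4 and 526 in library 5. The part of that make-up in these levels was not tested. Itga8, whose product binds nephronectin, was 19.5-fold higher in mesenchyme (17.4 against 0.895 CPM), Itga4 11.0-fold (10.3 against 0.942 CPM) and Itga5 2.22-fold (12.1 against 5.46 CPM). The optic vesicle levels of Itga8 and Itga4 lay under those of erythroid-like cells, 1.38 and 1.47 CPM, which for receptors need not be free RNA alone. Without library 2, Itga4 stayed under the 10 CPM minimum and was no longer called, at a ratio of 0.109.

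Itga6, a laminin receptor subunit, went the other way. It stood at 17.7, 29.1, 19.9, 24.9 and 38.2 CPM in the optic vesicle of libraries 1 to 5 and at 11.4, 8.33, 6.11, 5.09 and 6.90 CPM in mesenchyme, a ratio of 3.77 (interval 3.40 to 4.19). Every optic vesicle value lay above every mesenchyme value, with the nearest pair both in library 1. Sparc, a collagen-binding matrix glycoprotein, stood at 81.2, 113, 161, 209 and 240 CPM in optic vesicle and at 52.9, 34.1, 58.1, 57.7 and 77.1 CPM in mesenchyme, a ratio of 3.39 (interval 3.26 to 3.52). The ratio in library 1 was the smallest, and the class values again did not overlap. Against the mesenchymal classes taken apart, Sparc in optic vesicle was higher than in crest mesenchyme (8.18, 9.58, 19.2, 50.9 and 75.3 CPM) in all 5 libraries. Against head mesoderm (147, 133, 153 and 177 CPM in libraries 1 to 4) it was lower in libraries 1 and 2 and higher in libraries 3 and 4. Both pooled ratios weight library 5 most, and with libraries weighted equally they were 3.43 for Itga6 and 2.87 for Sparc. Itgb1, the common beta partner, was 1.71-fold lower in optic vesicle (43.6 against 74.4 CPM) and Dag1 1.40-fold higher (49.0 against 35.1 CPM), both short of the 2-fold rule.

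**Figure D3:**
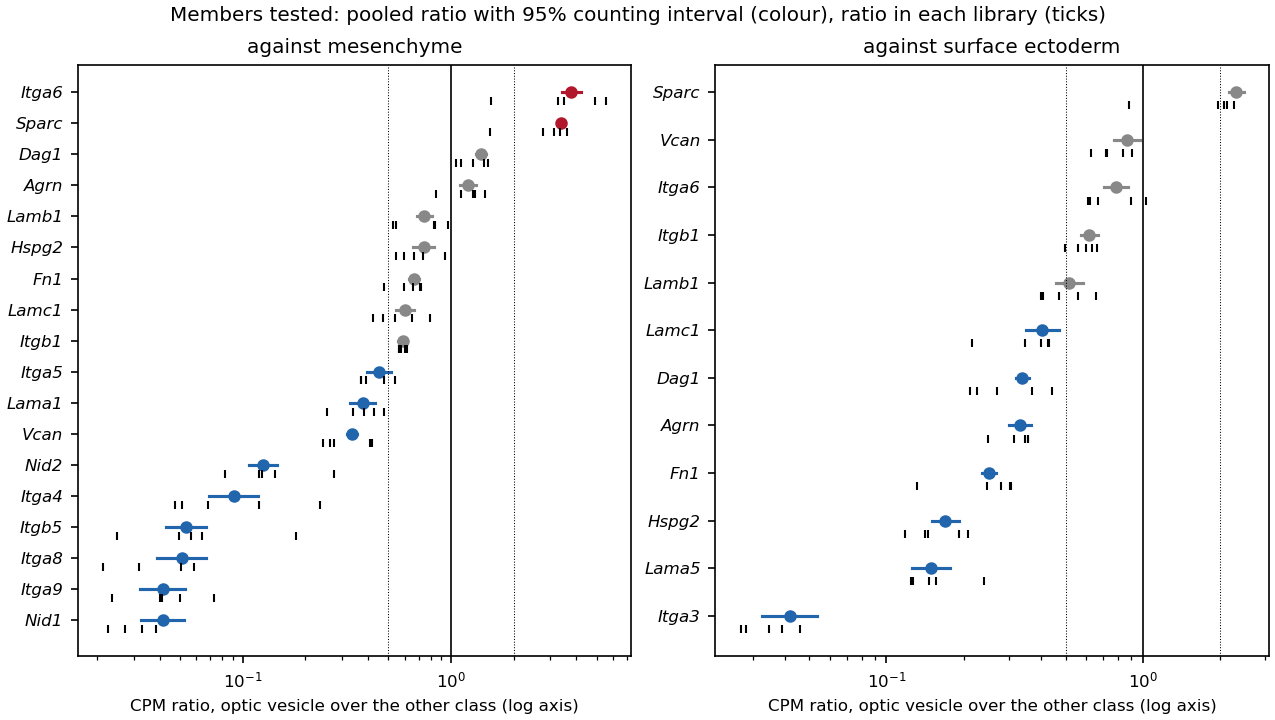
CPM ratio of optic vesicle over mesenchyme (left, 18 members tested) and over surface ectoderm (right, 12 members tested), on log axes; circles are pooled ratios with their 95% counting intervals, red where higher and blue where lower by the size rule, and ticks are single libraries in which both values were above 0, with dotted lines at the 2-fold limits. Itga6 (3.77) and Sparc (3.39) stand apart to the right in the left panel, and Itga3 (0.042) is farthest to the left in the right panel.

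Mesenchyme was itself of 2 kinds. In a comparison added after the data were seen, head mesoderm was higher than crest mesenchyme in Sparc and Vcan and lower in Itga4 and Nid1, 2 of 17 tested in each direction, where 2.43% of all genes tested were higher and 1.04% lower. Sparc was at 147, 133, 153 and 177 CPM in the head mesoderm of libraries 1 to 4 and at 8.18, 9.58, 19.2 and 50.9 CPM in crest mesenchyme. The pooled ratio was 4.44, and 6.94 with libraries 1 to 4 weighted equally, because crest mesenchyme of library 5, at 75.3 CPM, entered the pooled value. Vcan was 2.63-fold higher in head mesoderm (160 against 60.7 CPM), Nid1 3.12-fold lower (10.2 against 32.0 CPM) and Itga4 7.14-fold lower (1.72 against 12.3 CPM). The Itga4 level of head mesoderm was thus close to the 0.942 CPM of optic vesicle, and the call of optic vesicle against joined mesenchyme rests on crest cells for that gene. The 2 classes shared markers: head mesoderm carried 517 CPM of the crest list and 477 CPM of its own, and crest carried 59.2 to 498 CPM of the head mesoderm list by library, highest in library 5. At Leiden resolution 2 the head mesoderm class held 281 cells, a crest-named cluster of 177 cells led by Tagln and Acta2 appeared, and the Sparc ratio was 4.07. The part of these markers in the result was not tested. The head mesoderm of library 4 rests on 23 cells.

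Surface ectoderm was higher than optic vesicle in Lama5, Lamc1, Fn1, the heparan sulphate proteoglycan genes Hspg2 and Agrn, and the receptors Itga3 and Dag1. Of 12 members tested, 7 were lower in optic vesicle, where 5.98% of all 7648 genes tested were, and 0 were higher, where 2.26% were. The median log2 ratio was -1.43, beside -0.01 for all genes. The ectodermal class carried 499.9 CPM of the optic vesicle marker list, which holds Pax6 and Six3, genes that lens ectoderm also expresses; their part in the result was not tested.

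The ectodermal class was not only lens ectoderm. Of its 373 cells, 222 lay in sub-clusters with Pitx1, a gene of oral and pituitary ectoderm, among their leading genes, and 1 sub-cluster of 35 cells, all in library 5, passed 3 lens markers. In those 35 cells, a description added after the data were seen, Fn1 was at 334 CPM (interval 294 to 379), Hspg2 at 54.3 CPM, Itga3 at 24.5 CPM (18 UMIs) and Lama5 at 12.2 CPM (9 UMIs). Each of the 7 genes was at least 2.12-fold higher there than in the pooled optic vesicle, and at least 2.49-fold higher in the ectodermal cells without them. The calls thus describe ectoderm of several kinds.

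Itga3, another alpha subunit of laminin receptors, was at 0.626, 0.842, 0.825, 1.55 and 1.57 CPM in optic vesicle. In surface ectoderm it was at 23.2, 24.2, 29.2, 33.7 and 40.0 CPM, 23.8-fold higher. Thinned to 10000 UMIs per cell, 23.0% of surface ectoderm-like and 1.09% of optic vesicle-like cells held an Itga3 UMI, beside 0% of erythroid-like cells; without thinning the shares were 50.9%, 4.02% and 0.395%. The difference was thus present at matched depth. Thinning left out 8 of the ectodermal and 49 of the optic vesicle-like cells as too shallow. Lama5, the alpha chain of laminins typical of epithelial basement membranes, was at 4.17, 5.37, 3.23, 4.51 and 3.26 CPM against 33.0, 22.3, 25.8, 29.0 and 22.2 CPM, 6.68-fold higher in ectoderm.

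Hspg2 was at 5.63 to 9.65 CPM in optic vesicle and at 29.2, 43.1, 42.5, 49.3 and 81.6 CPM in surface ectoderm, 5.91-fold higher. Fn1 was at 24.2 to 39.6 CPM in optic vesicle against 79.4, 150, 99.4, 121 and 303 CPM, 3.98-fold higher in ectoderm. The ectoderm of library 5 was the highest for Hspg2, Fn1 and Dag1, while library 5 was not the highest for Lama5. Dag1 was 2.95-fold higher in ectoderm (145 against 49.0 CPM), Agrn 3.01-fold (49.8 against 16.5 CPM) and Lamc1 2.46-fold (23.7 against 9.60 CPM). Lamb1 narrowly missed the rule, 1.93-fold higher in ectoderm.

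Sparc had a pooled optic vesicle over ectoderm ratio of 2.32 and was not called, because the direction differed in library 1 (81.2 against 91.4 CPM). In libraries 2 to 5 optic vesicle was higher, with 113 against 57.5, 161 against 77.2, 209 against 91.6 and 240 against 113 CPM. The pooled ratio lay above the ratio in each of the 5 libraries, because libraries contribute different shares of each class. Without library 1, Sparc passed the rule. Library 1 held 34 surface ectoderm-like cells, whose ectodermal markers summed to 3403 CPM against 1648 to 1824 CPM in the other libraries; the part of that in the Sparc value was not tested.

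Set against mesenchyme, in another comparison added after the data were seen, surface ectoderm was higher in Lama5 (26.0 against 0.750 CPM), Itga3, Itga6, Hspg2, Dag1, Agrn and Fn1. It was lower in Itga8, Nid1, Itga4, Nid2, Itga9, Lama1 and Vcan. These were 7 of 20 members tested in each direction, where 7.54% of all genes tested were higher and 3.67% lower. Nid1 stood at 0.771 CPM in surface ectoderm, again under the erythroid-like level. Nid1, Itga8 and Itga4 thus lay under the erythroid-like level in both optic vesicle and ectoderm.

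Within the neural classes compared, few members passed the rule, and the ventral cells with Nkx2-1 and Shh were not in those classes. Between optic vesicle and other forebrain 1 of 8 members tested was higher, Lamb1, where 1.27% of all genes tested were higher, and 0 were lower, where 0.947% were. Lamb1, the beta chain of many embryonic laminins, was at 13.1, 15.8, 16.5 and 13.7 CPM in the optic vesicle of libraries 1 to 4 and at 9.55, 8.90, 3.53 and 1.76 CPM in other forebrain, a pooled ratio of 2.66 (interval 2.31 to 3.07). The optic vesicle values stayed within a narrow range, while the forebrain value was far lower in libraries 3 and 4 than in libraries 1 and 2. Sparc had a pooled ratio of 2.02, helped by the optic vesicle of library 5, for which no forebrain value stands; library by library it was 81.2 against 82.4, 113 against 81.6, 161 against 96.6 and 209 against 115 CPM. Without library 1, Sparc passed the rule here too. Pooled, Itga6 (ratio 0.826), Fn1 (0.850), Itgb1 (0.970) and Dag1 (1.15) lay close to 1, again with the optic vesicle of library 5 included. The receptor genes together were lower in optic vesicle in each of libraries 1 to 4. They summed to 117, 153, 111 and 122 CPM there, against 155, 183, 128 and 134 CPM in other forebrain. The optic vesicle of library 5, at 183 CPM, had no forebrain value beside it. The matrix sum was higher in optic vesicle in libraries 2 to 4 and lower in library 1.

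**Figure D4:**
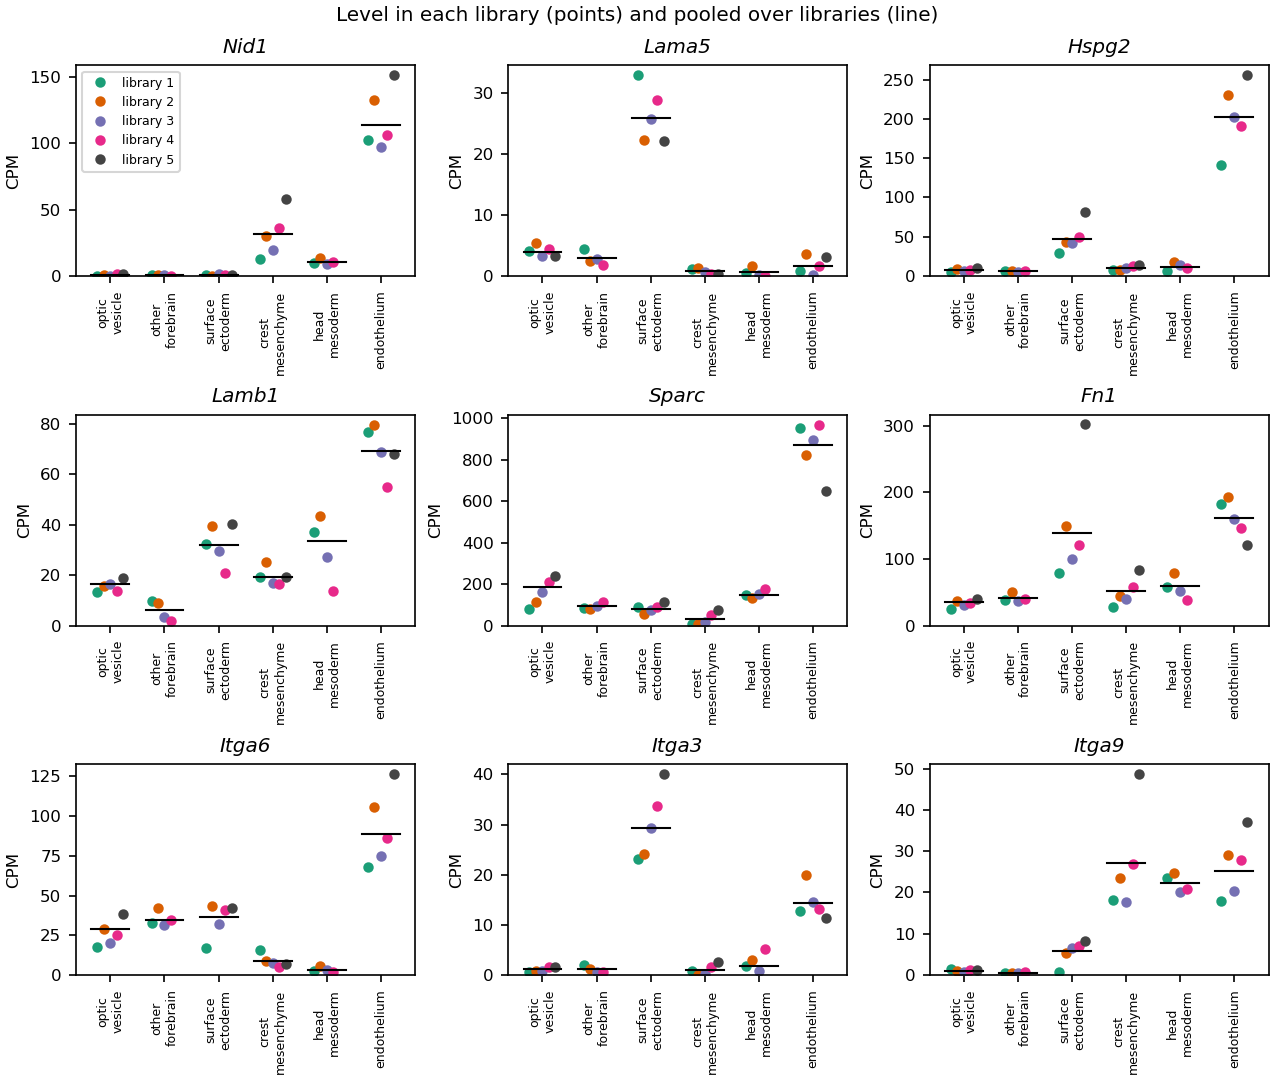
CPM of 9 members in each library (coloured points, classes with at least 20 cells) and pooled (black line), by class on the horizontal axis and on a linear scale from 0. Sparc reaches 969 CPM in endothelium, Lama5 and Itga3 are highest in surface ectoderm, and Nid1 lies near 0 in the optic vesicle, other forebrain and surface ectoderm.

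The optic vesicle was not uniform in these genes. In library 5, which held the largest number of its cells, 2 sub-clusters made without the member genes were compared as a description, chosen after the data were seen. A sub-cluster led by Pmel, Trpm1 and Dct, genes of pigment cells, had 113 cells and held Sparc at 310 CPM (interval 291 to 329) and Lamb1 at 33.2 CPM. Another, led by Cp and Zic1 with Pax2 among its genes, had 208 cells with Sparc at 202 CPM (interval 190 to 214) and Lamb1 at 14.8 CPM. Itga6 was at 51.5 CPM in the cells led by Pmel and 33.7 CPM in those led by Cp and Zic1, so Sparc, Lamb1 and Itga6 were all higher in the former.

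Other members ran the opposite way or hardly differed. Itgb8, whose product pairs with alpha-v, was at 0.888 CPM (3 UMIs) in the Pmel-led cells and 7.32 CPM in the Zic1-led cells, and Agrn was at 9.47 and 18.8 CPM. Vcan (16.9 and 17.0 CPM), Dag1 (53.6 and 58.3 CPM) and Itgb1 (43.8 and 52.7 CPM) had overlapping intervals.

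Endothelium-like cells had the broadest basement membrane profile. Against mesenchyme 12 of 20 members tested were higher, where 12.3% of all 7799 genes tested were higher, and 3 were lower, where 7.64% were. The median log2 ratio was 1.43, beside -0.13 for all genes. Matrix members made up 8 of the 12 and receptors the other 4. Endothelium also carried 1133 CPM of erythroid markers, against 255 to 314 CPM in the other 5 classes, and library 4 gave the excess: 4978 CPM there, and 143 to 611 CPM in the other libraries. Without library 4, 13 members were higher and 3 lower.

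Hspg2 was at 141, 231, 203, 192 and 256 CPM in the endothelium of libraries 1 to 5 and at 7.72, 9.58, 11.0, 12.1 and 14.5 CPM in mesenchyme, a ratio of 18.8 (interval 17.2 to 20.5). Sparc was at 955, 821, 894, 969 and 647 CPM against 34.1 to 77.1 CPM, a ratio of 15.7. For both genes the lowest endothelial library lay far above the highest mesenchymal one. Lama4, the alpha chain of endothelial laminin, stood at 36.9 CPM in endothelium and 3.85 CPM in mesenchyme (ratio 9.57), and lay at or under 0.154 CPM in optic vesicle, other forebrain and surface ectoderm. Nid1 reached 114 CPM (ratio 4.08), Lamb1 69.3 CPM (3.14), Fn1 162 CPM (3.07), Nid2 66.6 CPM (2.81) and Lamc1 41.2 CPM (2.58). An alpha, beta and gamma chain of laminin were thus all higher, together with both nidogens and perlecan.

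Among endothelial receptors Itga3 and Itga6 led. Itga6 was at 68.0, 106, 75.1, 86.3 and 126 CPM in endothelium against 5.09 to 11.4 CPM in mesenchyme, a ratio of 11.6. Itga3 was at 14.4 CPM against 1.19 CPM (ratio 12.1), Itga5 at 42.9 CPM against 12.1 CPM (3.54) and Itgb1 at 163 CPM against 74.4 CPM (2.19). Vcan, Itgb5 and Itga8 were lower in endothelium, 28.5-fold, 21.3-fold and 17.4-fold. Vcan was at 8.12, 2.71, 0.737, 0.846 and 3.08 CPM in the endothelium of libraries 1 to 5, and without library 1 its ratio moved from 0.0351 to 0.0223. Itga9, at 25.3 CPM, and Agrn, at 16.7 CPM, did not pass the rule in either direction.

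The 27 members under 10 CPM in all 6 classes included receptors of blood cells. In 12 megakaryocyte-like cells Itga2b and Itgb3, the pair that makes the platelet fibrinogen receptor, reached 531 CPM (167 UMIs) and 353 CPM (111 UMIs). In 26 myeloid-like cells Itgam (ENSMUSG00000030786) and Itgb2, the subunits of a leukocyte integrin, both stood at 27.6 CPM and Itgal at 19.7 CPM. These genes lay under 0.5 CPM in the optic vesicle, forebrain, ectoderm and both mesenchymal classes. Such small classes describe few cells and were left out of the comparisons.

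Other low members still had a tissue pattern. Itgb8 was highest in the neural classes, at 9.52 CPM in other forebrain and 5.29 CPM in optic vesicle, against 2.40 CPM or less in the other 4. Lama2 was at 9.25 CPM in head mesoderm, Itga1 at 9.66 CPM in endothelium, and Itgav spread evenly from 4.86 to 9.91 CPM. Of the 27, 17 stayed under 1 CPM in all 6 classes. Migratory crest-like cells (128) held Itga4 at 48.7 CPM, more than any of the 6 classes, with 28.2, 20.2, 41.9 and 166 CPM in libraries 1, 3, 4 and 5; library 5 stood apart there.

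A wider list of 78 measured genes of the same system (other matrix genes, receptors, adaptors, remodelling enzymes and dystroglycan glycosylation) was read by the same rule. Against mesenchyme, 20 of 51 tested were lower in optic vesicle and 5 were higher, beside 5.02% and 5.01% of all genes tested. The lower ones were led by Ddr2 and Hapln1, a collagen receptor and a hyaluronan link protein (0.401 against 30.4 CPM and 1.08 against 54.6 CPM), and included both collagen IV genes Col4a1 and Col4a2. The higher ones were Ddr1, Adamts9, Bcam, Col18a1 and Sdc4, with Ddr1 at 19.3 against 1.45 CPM and Bcam, a laminin alpha-5 receptor, at 31.7 against 7.76 CPM. All 14 adaptor genes tested, such as Tln1 and Vcl, had ratios under 1, as did 4226 of all 7531 genes tested, and 5 of the 14 passed the rule.

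Against surface ectoderm, 14 of 45 genes of that list were lower in optic vesicle, led by Fermt1 (0.201 against 64.2 CPM), the epithelial kindlin that activates integrins, then Hapln1, Npnt and Frem2. Ntn1, at 10.9 against 0.771 CPM, was the 1 higher gene; of all genes tested 5.98% were lower and 2.26% higher. Against other forebrain, Bcam, Adamts9 and Smoc1 were higher, 3 of 35, and 0 were lower, beside 1.27% and 0.947% of all genes. Against mesenchyme, endothelium was higher in 16 of 48, led by Col15a1 (83.9 against 0.273 CPM), Col18a1, Timp3 and Mmp15, and lower in 9, led by Fbln2, Ddr2, Has2 and Sdc2, beside 12.3% and 7.64% of all genes.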

How the data were processed

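Droplet 3′ single-cell RNA was counted by the authors with Cell Ranger on mm10 (GRCm38), per the submitters' processing notes; the sources used here give no version, filter or cell-calling rule. The deposited values are raw UMI counts, 1 matrix for all libraries, with genes and barcodes listed beside it. The barcode suffix separated 5 libraries, which the labels tie to no stage, so no sample entered a group comparison. Depth ran from 41694822 to 72925591 UMIs per library.

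From these counts, with scanpy 1.11.5, barcodes under 1000 genes or over 10% mitochondrial UMIs were dropped, 66 doublets called by Scrublet (0.808%) were removed, and cells were scaled to 10000 UMIs and clustered (2000 variable genes, 30 components, 15 neighbours, Leiden resolution 1). Neural and ectodermal cells were clustered again at resolution 2. Members and the wider list, 126 genes, were left out of the clustering. Clusters were named by markers. The scoring of those markers, and the resolution of the second clustering, were set and revised after marker levels and class sizes had been seen; a difference between classes may come from these rebuilt names. UMIs were summed by class and library and turned into CPM, with exact Poisson intervals at 95%, which cover counting error only. The comparison was tested on simulated counts. Every member past the size rule is named, up to 12 a direction.

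Members and lists were chosen with earlier results of these data known. Alternatives covered doublets, resolution, member genes, library weights, the CPM minimum, the CPM total and each library left out. Gene positions are those of GENCODE M21, and promoters those of RefSeq. Some items are not reported here.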

Additional observations from a re-analysis of the deposited data

How the results depend on the processing

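Leaving out 1 library at a time, the members lower in optic vesicle than mesenchyme numbered 8 to 10 and those higher 2 in each case; lower than surface ectoderm 7 to 8 and higher 0 to 1; higher than other forebrain 1 to 2. Endothelium was higher than mesenchyme in 12 to 13 and lower in 3 to 4; surface ectoderm against mesenchyme gave 7 higher and 6 to 8 lower, and head mesoderm against crest 2 to 3 higher and 2 lower. The member gained without library 1 against surface ectoderm (count 1) and other forebrain (count 2) was Sparc, which also passed against surface ectoderm (count 1) when member genes were allowed in the clustering. With no minimum CPM, 5 members were higher in optic vesicle than mesenchyme (Itgae, Itgb8 and Lama5 added), 6 lower in endothelium than mesenchyme (Itga11, Itgb8 and Lama2 added) and 4 lower in head mesoderm than crest (Itga6 and Itgb8 added). With a minimum of 20 CPM, 5 were lower in optic vesicle than mesenchyme, 0 higher than other forebrain, 4 lower in surface ectoderm than mesenchyme and 1 lower in head mesoderm than crest, because fewer genes were tested. Shares over all genes are given for the main setting alone, so none stands beside the counts at other settings. With doublets kept, 6 ratios left their counting intervals, by at most 1.46 times, while Nid1 in surface ectoderm over mesenchyme moved to 0.0157 inside its wide interval. At resolution 2, 4 ratios did so, with member genes allowed 5, and with libraries weighted equally 18 ratios and levels. No ratio of a called member changed direction in any of these alternatives. A paired test over libraries was not made, because libraries are not treated as replicates. The direction within each library is part of the call. Depth limits a level to steps of single UMIs, so members near 1 CPM are read against erythroid-like cells alone. For receptors that reading can include transcripts of the erythroid-like cells themselves.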
